A study of Mus musculus with 15 samples.

Results

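The 10 genes described here mark endothelial cells, the cells that line blood vessels: Esam, Pecam1, Cdh5, Tie1, Tek, Kdr, Flt1, Eng, Emcn and Egfl7. They were taken from the array by gene symbol, which gave 14 of the 25697 probes and 10 of the 16593 named genes. Total RNA of heart and liver was hybridised to one-colour Illumina bead arrays, 15 arrays in all, from male mice of strain C57BL/6J-Tyr aged 17 weeks. The wild-type group had 4 hearts and 4 livers, and the group homozygous for an ABCB5 mutant allele had 4 hearts and 3 livers. ABCB5 belongs to the ABC transporters, membrane proteins that use ATP to move substrates out of cells. The labels do not say what the mutation is, no other allele or treatment is named for either group, and both share the strain background. By the animal numbers, 7 of the 8 mice gave both tissues and 1 mutant gave a heart only, and a mouse carries the same number below in both tissues. Each sample of a tissue was a separate mouse. No probe carried the name Abcb5 (0 of 25697), so the genotype labels were not checked by the level of the mutated gene.

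Endothelial cells are held together by adhesion molecules at their borders, among them VE-cadherin, PECAM-1 and ESAM, which control how tightly the vessel wall is sealed. They respond to vascular endothelial growth factors through the receptors encoded by Flt1 and Kdr, and to angiopoietins through TIE2, encoded by Tek, with TIE1 as its partner. In the heart they form a dense capillary bed between the muscle cells, and in the liver most of them form the fenestrated lining of the sinusoids.

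The values were the authors' normalized linear intensities, which appear to have been processed separately in the tissues. Values below 0 made up 27.7% to 27.8% of each heart array and 0% of each liver array, and the step behind this is not given. The median was between 8.04 and 8.08 on the heart arrays and between 113.105 and 113.112 on the liver arrays, so levels were never set against each other across tissues. The background of each array was taken as the mode of its low values, between -2.35 and -2.33 in heart and between 109.948 and 109.957 in liver. The brightest spot of wild-type heart 4 (55709.9) stood apart from those of the other hearts (23655.5 to 29793.5). Intensities below are the authors' values. Differences are in log2 of the background-corrected intensity plus an offset of 16, mutant minus wild type, each with its SE from limma. The Benjamini-Hochberg adjusted p runs over all 18398 probes tested in heart or all 11849 in liver, with a threshold of 0.05. Of the labelled tissues, hearts had 9 of the 9 heart-muscle markers on the array above background and livers 9 of 10 hepatocyte markers. Hearts also had 7 of the 10 hepatocyte markers above background, and livers 2 of the 9 heart-muscle markers. Alb and Apoc3 were above background on no heart array, but the Alb probe was dim in liver too (log2 level 5.07 in wild type).

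In the hearts all 10 endothelial genes had positive differences between mutant and wild type, by small amounts, and 0 passed limma's threshold. A positive difference was found in 51.8% of all genes, each gene represented by its brightest probe. The differences ran from 0.04 for Flt1 to 0.41 for Esam on the log2 scale, with a median of 0.22 (1.17-fold) against 0.01 over all 12497 genes measured. Past the threshold were 2.18% of all genes. At an unadjusted p below 0.05, 5 of the 10 were higher (Esam, Pecam1, Tie1, Tek and Cdh5), against 8.99% of all genes, and in 3 of the 10 (Esam, Tek and Pecam1) every mutant heart lay above every wild-type heart, against 6.01% of all genes. The genes mark 1 cell type and were measured in the same 8 hearts, so they are not independent of each other. They were also chosen with earlier results of these data known, so these counts are not a test of the set. In whole tissue, fewer or more endothelial cells and less or more RNA per cell cannot be told apart.

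**Figure D1:**
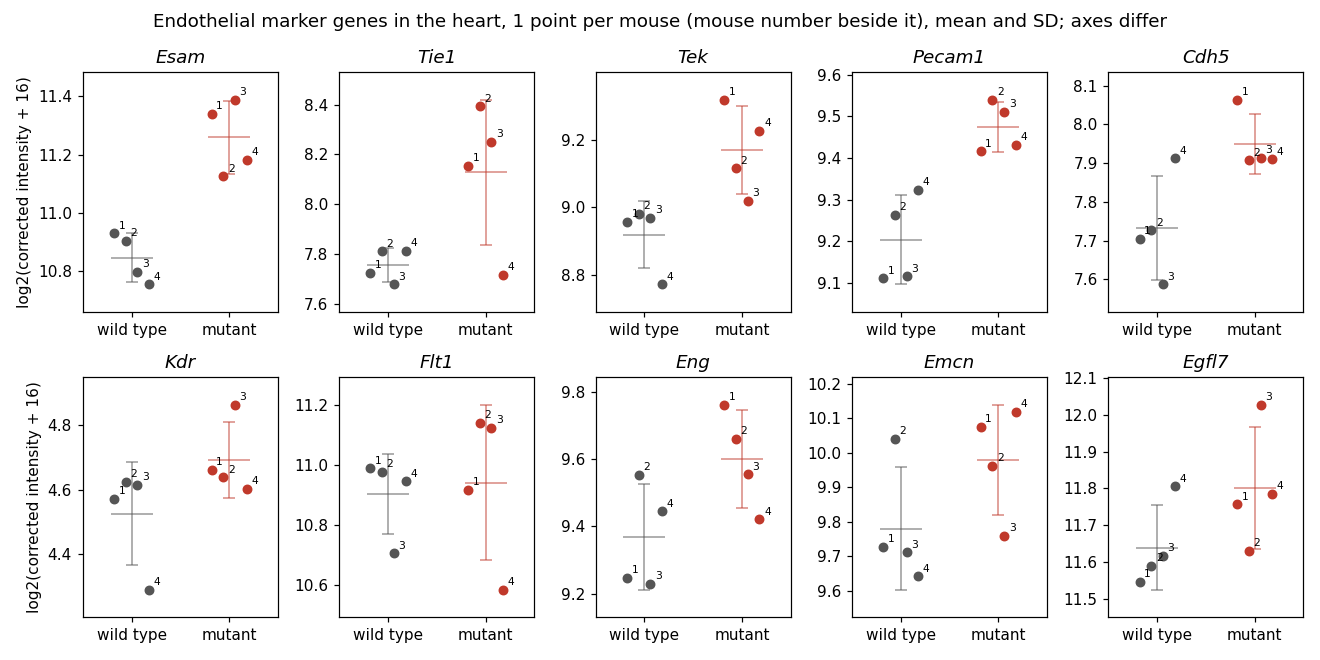
Level of each of the 10 genes in every heart, as log2 of the background-corrected intensity plus 16 (vertical axes, which differ between panels), for wild type (grey) and mutant (red). Each point is 1 mouse with its number, and the bars give the mean and SD of 4 mice. The groups are apart for Esam, Tek and Pecam1 and overlap for the other 7 genes.

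Among the junction molecules, Esam, an immunoglobulin-type adhesion molecule of endothelial tight junctions and platelets, had the largest difference of the 10. Its intensity was 1934, 1899, 1762 and 1710.4 in wild-type hearts 1 to 4 and 2573, 2216, 2663 and 2305 in mutant hearts 1 to 4. The lowest mutant heart lay above the highest wild-type heart. The difference was 0.41 ± 0.10 (1.33-fold, 95% confidence interval 1.15 to 1.54, n = 4 mice per genotype, limma adjusted p = 0.0547), just short of the threshold. In 4 of 16 alternative settings Esam passed it, with adjusted p between 0.00710 and 0.144 over all 16.

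Pecam1, which encodes the adhesion molecule CD31 of endothelium, platelets and leukocytes, was the second junction gene whose groups were apart. Its intensity was 534.6, 596.5, 536.5 and 622.4 in wild-type hearts 1 to 4 and 664.9, 726.3, 711.3 and 672.4 in mutant hearts 1 to 4. This is a difference of 0.27 ± 0.09 (1.21-fold, limma adjusted p = 0.176). A dimmer Pecam1 probe, annotated to another transcript, stood at 0.12 ± 0.12 (limma adjusted p = 0.684) with overlapping groups. Cdh5, which encodes VE-cadherin, the cadherin of endothelial adherens junctions, stood at 190.4, 193.6, 174.0 and 222.7 in wild-type hearts 1 to 4. The mutant hearts were at 249.3, 221.8, 222.8 and 222.2. Wild-type heart 4 lay level with mutant hearts 2 to 4, and the difference was 0.22 ± 0.10 (limma adjusted p = 0.315).

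Of the TIE receptors, Tie1 had the second largest difference of the 10 genes and Tek the fourth. Tie1, the orphan receptor that modulates TIE2, stood at 193.1, 206.2, 186.5 and 206.7 in wild-type hearts 1 to 4 and at 266.8, 317.9, 286.1 and 192.1 in mutant hearts 1 to 4. Mutant heart 4 lay inside the wild-type range, while the other 3 mutant hearts lay above it. The difference was 0.37 ± 0.13 (1.29-fold, limma adjusted p = 0.195), and it ran from 0.28 to 0.51 with a heart left out. It passed the threshold without mutant heart 4 (limma adjusted p = 0.0402) and in none of the other 15 alternative settings, where adjusted p reached 0.378. Tek, the angiopoietin receptor TIE2, stood at 478.6, 487.2, 482.7 and 419.0 in wild-type hearts 1 to 4. The mutant hearts were at 620.0, 536.5, 500.3 and 580.2, all above the wild-type hearts. The difference was 0.25 ± 0.10 (1.19-fold, limma adjusted p = 0.252).

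Of the VEGF receptors, neither gave a difference beyond the spread between mice on its brightest probe. Flt1, the high-affinity receptor that also acts as a decoy for VEGF-A, stood at 2015, 1998, 1653 and 1955 in wild-type hearts 1 to 4 on its brighter probe. The mutant hearts were at 1916, 2240.3, 2216 and 1518, lying on both sides of the wild-type values. The difference was 0.04 ± 0.13 (95% confidence interval -0.25 to 0.32, limma adjusted p = 0.928). The dimmer Flt1 probe had the opposite sign, at -0.47 ± 0.19 (95% confidence interval -0.89 to -0.05, limma unadjusted p = 0.0299, adjusted p = 0.257), with 23.9, 28.01, 28.3 and 49.2 in the wild-type hearts and 11.1, 23.8, 30.02 and 9.35 in the mutant hearts. With both probes averaged, the Flt1 difference turned to -0.22 (limma adjusted p = 0.521). Kdr, the main signalling receptor for VEGF-A, was measured by 1 probe that was close to background in heart. It stood at 5.46, 6.35, 6.20 and 0.915 in wild-type hearts 1 to 4, the last not above background, and at 6.99, 6.59, 10.8 and 5.98 in the mutant hearts. Its difference of 0.17 ± 0.11 (limma adjusted p = 0.503) thus rests on very dim values.

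The 3 remaining genes are a co-receptor, a surface mucin and a secreted factor. Eng encodes endoglin, a co-receptor for BMP9 and TGF-beta. It stood at 589.2, 733.1, 582.1 and 678.7 in wild-type hearts 1 to 4 and at 850.5, 791.6, 734.2 and 667.2 in the mutant hearts. Wild-type heart 2 lay just under mutant heart 3 and above mutant heart 4, and the difference was 0.23 ± 0.11 (limma adjusted p = 0.343). Emcn, a sialomucin of capillary and venous endothelium, stood at 829.8, 1034.7, 820.8 and 780.8 in the wild-type hearts and at 1060.4, 979.8, 848.8 and 1093 in the mutant hearts. Wild-type heart 2 lay above mutant hearts 2 and 3, and the difference was 0.20 ± 0.12 (limma adjusted p = 0.453). Egfl7, which encodes a secreted epidermal-growth-factor-like protein that binds the vessel matrix, was measured by 3 probes annotated to 3 transcripts.

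The brightest Egfl7 probe stood at 2971, 3063, 3122 and 3560.4 in wild-type hearts 1 to 4 and at 3442, 3152, 4156 and 3510.0 in the mutant hearts. The groups overlapped, with a difference of 0.16 ± 0.11 (limma adjusted p = 0.521). The second Egfl7 probe gave 0.18 ± 0.12 (limma adjusted p = 0.524). The dimmest, with intensities of 6.14 to 15.4 in the wild-type hearts and 3.17 to 10.1 in the mutant hearts, gave -0.19 ± 0.13 (limma adjusted p = 0.523). The dim probes of Flt1 and Egfl7 were thus the 2 of the 14 heart probes with negative differences.

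By mouse, the 10 genes did not rank the hearts alike. The mean of their log2 levels, each centred on its mean over 8 hearts, was -0.13, -0.04, -0.18 and -0.11 in wild-type hearts 1 to 4 and 0.16, 0.13, 0.16 and 0.01 in mutant hearts 1 to 4. Every mutant heart was above every wild-type heart in this mean, and mutant heart 4 was nearest to wild type. Of the 10 genes, mutant heart 4 was the lowest mutant for 4 and the highest heart of all for 1 (Emcn). Within a group, the SD of a gene's log2 level was between 0.06 (Pecam1, mutant) and 0.29 (Tie1, mutant).

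The promoters of Tie1, Tek and Egfl7 are shown. Tie1 and Tek had the largest heart differences of the receptor genes, neither past the threshold, and Egfl7 has 3 start sites. They are mouse sequences from RefSeq on build GRCm38.p6, 250 bases before to 50 after a start site, in the direction of the gene. Of the 10 genes 7 had an entry (9 windows), all but Esam, Pecam1 and Cdh5. Capitals mark AGGAAG on either strand, a core bound by ETS factors such as ERG and FLI1, and AGATAA on either strand, a core bound by GATA factors.
Tie1, chr4:118489800-118490099, minus strand: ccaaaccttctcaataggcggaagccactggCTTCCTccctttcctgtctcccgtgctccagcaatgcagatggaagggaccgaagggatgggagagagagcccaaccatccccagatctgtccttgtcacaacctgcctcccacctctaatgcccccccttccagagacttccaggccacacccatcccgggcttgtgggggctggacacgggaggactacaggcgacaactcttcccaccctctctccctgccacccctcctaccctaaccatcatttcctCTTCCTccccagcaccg
Tek, chr4:94739039-94739338, plus strand: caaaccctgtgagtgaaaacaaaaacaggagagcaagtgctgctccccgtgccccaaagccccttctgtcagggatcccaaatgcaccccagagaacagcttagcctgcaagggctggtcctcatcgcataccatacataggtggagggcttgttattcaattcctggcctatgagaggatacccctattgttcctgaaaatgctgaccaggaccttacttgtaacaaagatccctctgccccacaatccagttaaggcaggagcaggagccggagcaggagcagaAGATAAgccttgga
Egfl7, site 1, chr2:26580833-26581132, plus strand: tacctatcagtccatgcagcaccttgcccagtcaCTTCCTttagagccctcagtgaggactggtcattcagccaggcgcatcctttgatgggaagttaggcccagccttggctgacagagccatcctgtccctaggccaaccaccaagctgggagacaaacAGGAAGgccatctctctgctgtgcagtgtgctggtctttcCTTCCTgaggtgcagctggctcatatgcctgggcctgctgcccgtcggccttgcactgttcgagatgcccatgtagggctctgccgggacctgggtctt
Egfl7, site 2, chr2:26583615-26583914, plus strand: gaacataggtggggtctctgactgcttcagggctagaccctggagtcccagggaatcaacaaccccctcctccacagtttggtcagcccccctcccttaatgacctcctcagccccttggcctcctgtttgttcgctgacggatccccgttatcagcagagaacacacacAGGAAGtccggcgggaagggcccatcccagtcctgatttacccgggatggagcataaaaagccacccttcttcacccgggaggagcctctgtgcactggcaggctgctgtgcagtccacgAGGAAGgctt
Egfl7, site 3, chr2:26586386-26586685, plus strand: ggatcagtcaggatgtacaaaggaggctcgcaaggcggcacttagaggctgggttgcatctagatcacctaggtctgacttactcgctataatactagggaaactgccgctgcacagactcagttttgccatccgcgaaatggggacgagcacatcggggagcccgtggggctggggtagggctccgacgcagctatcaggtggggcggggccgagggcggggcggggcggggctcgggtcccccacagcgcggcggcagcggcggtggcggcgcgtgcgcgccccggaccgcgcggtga

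The Tie1 window held AGGAAG 2 times, at -219 and 34 from the start site and both on the reverse strand, where it reads CTTCCT. The Tek window held none and held AGATAA 1 time, at 37. Of the Egfl7 sites, site 1 held AGGAAG 3 times, site 2 held it 2 times and site 3 held it 0 times, and the 3 Egfl7 probes were not matched to these sites. Over all 9 windows of the endothelial genes 6 held AGGAAG, against 35.4% of 32851 windows of 300 bases, and 1 held AGATAA, against 11.2%. The matches are letters in a window, and binding was not measured.

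In the livers, where 11 of the 14 probes were tested, 0 of the 10 genes passed limma's threshold (0.131% of all genes did) and 0 had an unadjusted p below 0.05 (10.7% of all genes). The groups of all 10 overlapped, while those of 11.1% of all genes did not. Differences were positive in 7 and negative in 3, against 51.4% positive over all genes, and ran from -0.21 for Kdr to 0.13 for Emcn. Their median was 0.04, against 0.01 over the 8368 genes measured. The number with a positive difference was 2 without mutant liver 1. The 3 probes not tested were the dim probes of Pecam1, Flt1 and Egfl7, above background on 1, 0 and 0 of 7 livers.

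**Figure D2:**
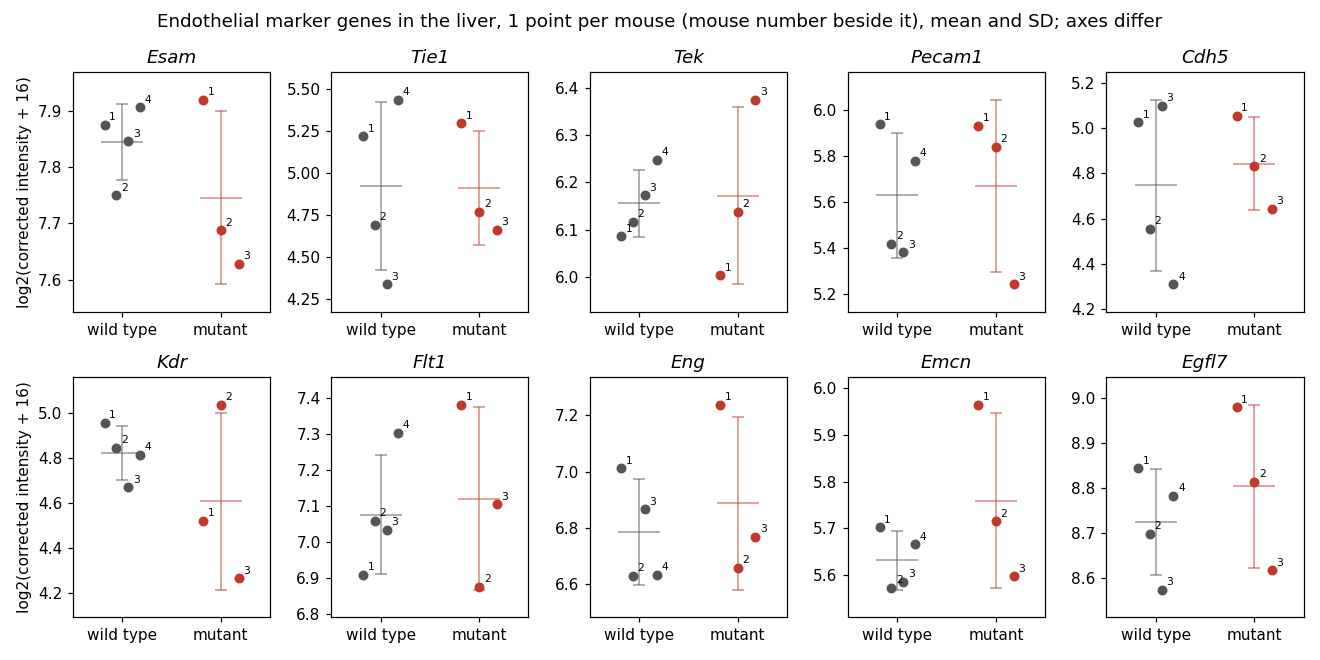
Level of each of the 10 genes in every liver, as log2 of the background-corrected intensity plus 16 (vertical axes, which differ between panels), for 4 wild-type (grey) and 3 mutant (red) mice. Points carry the mouse number, bars give mean and SD, and the groups overlap in all 10 panels.

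The junction genes of the liver lay within the spread between mice. Esam stood at 328.8, 309.3, 324.0 and 334.0 in wild-type livers 1 to 4 and at 336.2, 300.2 and 291.9 in mutant livers 1 to 3. Mutant liver 1 was the highest of all and mutant livers 2 and 3 the lowest, with a difference of -0.10 ± 0.12 (95% confidence interval -0.37 to 0.17, n = 4 and 3 mice, limma adjusted p = 0.821). Pecam1 ran from 135.7 to 155.2 in the wild-type and from 131.9 to 155.0 in the mutant livers, with a difference of 0.04 ± 0.19 (limma adjusted p = 0.962). Cdh5 ran from 113.2 to 128.3 and from 119.0 to 127.3, with wild-type liver 4 not above background and a difference of 0.10 ± 0.20 (limma adjusted p = 0.903).

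The receptor genes of the liver did not separate the genotypes either. Tie1, Kdr and Cdh5 were close to background in liver, with wild-type mean intensities of 125.5, 122.4 and 121.4 against a background near 110. A difference in these dim genes could be missed. Tek stood at 161.9, 163.4, 166.2 and 170.0 in wild-type livers 1 to 4 and at 158.2, 164.4 and 177.0 in the mutant livers, a difference of 0.02 ± 0.13 (limma adjusted p = 0.980). Tie1 ran from 113.8 to 137.3 in the wild-type and from 119.3 to 133.3 in the mutant livers, 1 wild-type liver being not above background (-0.01 ± 0.25, limma adjusted p = 0.993). Flt1 ran from 214.2 to 252.0 and from 211.5 to 260.7 (0.04 ± 0.15, limma adjusted p = 0.949). Kdr ran from 119.5 to 125.1 and from 112.3 to 126.8, with mutant liver 3 not above background (-0.21 ± 0.17, limma adjusted p = 0.701). Eng ran from 193.0 to 223.1 and from 195.0 to 244.8 (0.10 ± 0.16, limma adjusted p = 0.867).

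The last pair were Emcn and Egfl7. Emcn stood at 141.6 to 146.1 in the wild-type and 142.4 to 156.4 in the mutant livers (0.13 ± 0.13, limma adjusted p = 0.762). Egfl7 stood at 475.4 to 553.5 and 486.9 to 598.5 (0.08 ± 0.13, limma adjusted p = 0.875). Mutant liver 1 was the highest liver for 5 of the 10 genes and mutant liver 3 the lowest for 3. The centred mean of the 10 genes was 0.11, -0.11, -0.08 and 0.05 in wild-type livers 1 to 4 and 0.19, -0.01 and -0.15 in mutant livers 1 to 3. Mutant mouse 1 was the highest mutant in both tissues by this mean, and mutant mouse 3 was high in heart and lowest in liver.

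**Figure D3:**
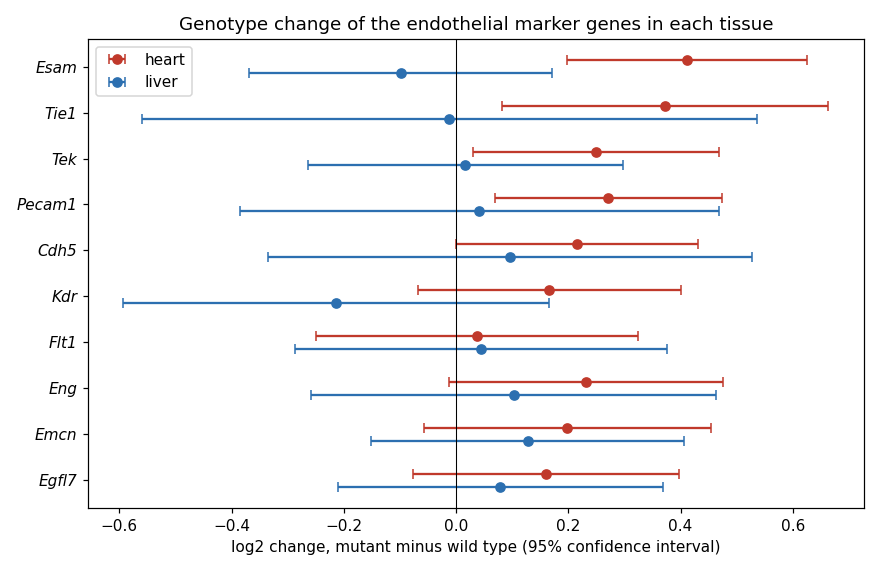
Difference between mutant and wild type for each gene on the log2 scale (horizontal axis) with its 95% confidence interval, in heart (red, 4 and 4 mice) and liver (blue, 4 and 3 mice). The heart intervals of Esam, Tie1, Tek, Pecam1 and Cdh5 lie above 0, and every liver interval includes 0.

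Whether the heart and liver differences were unequal was tested in 1 fit of all 15 arrays with the mouse as a random block, over 11315 probes. The fit sets against each other 2 tissues whose values appear to have been processed separately. Tie1, Kdr and Cdh5 were close to background in liver, and Kdr in heart as well, so their values here rest on dim probes. Of the 10 genes 0 passed limma's threshold (2.27% of all probes did) and 1 had an unadjusted p below 0.05 (16.1% of all probes). The 1 was Esam, whose liver difference minus heart difference was -0.51 ± 0.14 (limma adjusted p = 0.0689), with adjusted p between 0.0196 and 0.144 over 19 alternative settings. For Tie1 it was -0.39 ± 0.30, for Kdr -0.38 ± 0.20, for Tek -0.23 ± 0.15 and for Pecam1 -0.23 ± 0.21 (limma adjusted p = 0.560, 0.374, 0.472 and 0.638). The other 5 genes were between -0.13 and 0.01.

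The ligands and partner receptors of these pathways were followed in the hearts. Of 19 measured angiogenic ligands 1 passed the threshold and was lower, Bmp4, a bone morphogenetic protein (-0.47 ± 0.09, limma adjusted p = 0.0185), where 0.872% of all genes were lower and 1.31% higher. By value, Vegfa, the main ligand of KDR and FLT1, stood at 0.38 ± 0.11 (limma adjusted p = 0.120, with a dimmer probe at 0.10), and Angpt1, the agonist of TIE2, at 0.52 ± 0.16 (limma adjusted p = 0.139). The groups of Vegfa were apart, as were those of Vegfb, which was lower at -0.24 ± 0.09 (limma adjusted p = 0.213). Angptl1 stood at -0.38 ± 0.14 (limma adjusted p = 0.194) and Cxcl12 at 0.30 ± 0.11 (other probes between -0.30 and 0.20). The median of the ligand list was 0.03, with 10 positive and 9 negative. Of 18 other endothelial receptors and co-receptors 1 rose, Aplnr, the apelin receptor (0.69 ± 0.14, 1.61-fold, limma adjusted p = 0.0272). Apln, its ligand, was above background on no heart array and on no liver array, and whether its probe can detect it was not tested. Of the 18 receptors, 15 had positive differences, against 51.8% of all genes, and the median was 0.12. Adgrl4, an adhesion receptor of vascular endothelium, stood at 0.43 ± 0.12 (limma adjusted p = 0.0978), Ednrb, an endothelin receptor, at 0.35 (other probes at -0.18 and 0.39) and Unc5b, a netrin receptor, at -0.43.

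Other endothelial genes in the hearts gave medians between -0.11 and 0.25. Of all genes, 2.18% passed the threshold, 1.31% passed it and were higher, and 51.8% had a positive difference. Of 19 further pan-endothelial markers 0 passed on the brightest probe and 16 had positive differences, with a median of 0.13. A dimmer probe of 1 of the 19, which is not named here, was higher past the threshold. Tmem204, a transmembrane protein, stood at 0.27, Icam2, an endothelial adhesion molecule, at 0.28 and Cd93, a C-type lectin-like receptor, at 0.29. Of 14 genes of endothelial junctions and adhesion 1 rose, Icam1, the leukocyte adhesion molecule induced by inflammatory cytokines (0.67 ± 0.14, 1.59-fold, limma adjusted p = 0.0279), with 9 positive and a median of 0.10. Of 22 endothelial transcription factors 0 passed, 16 had negative differences and the median was -0.11, with Klf2, the shear-stress-induced factor, at -0.38 and Sox7 at -0.32, and with Ets2 at 0.30 and Tcf4 at 0.34.

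Of the markers of single vessel types 3 were past the threshold in the hearts, all higher, where 1.31% of all genes were. Of 11 markers of capillary endothelium 2 rose, Aqp7, an aquaglyceroporin (0.60 ± 0.11, limma adjusted p = 0.0196, with 3 dimmer probes between 0.15 and 0.42 that did not pass), and Car4, a membrane carbonic anhydrase (0.51 ± 0.11, limma adjusted p = 0.0358). Rgcc, a regulator of the cell cycle abundant in capillary endothelium, stood at 0.52 ± 0.12 (limma adjusted p = 0.0505). The median of the list was 0.17, with 8 positive and 3 negative. Lowest was Tcf15 at -0.37 (limma adjusted p = 0.170), with every mutant heart below every wild-type heart. Meox2 stood at -0.26 and Aqp1 at -0.13 (other probes at -0.26 and -0.22). Fabp4, a fatty-acid-binding protein of capillary endothelium, was above background on no heart array and on no liver array. Whether its probe can detect the gene was not tested. Of 11 arterial markers 0 passed (median -0.01), with Gja4, a connexin of arterial endothelium, at 0.38, Stmn2 at 0.41 and Hey1 at -0.27. Of 8 venous and 7 endocardial markers 0 passed in each (medians 0.03 and 0.10). The venous markers were 4 positive and 4 negative, with Vcam1 at -0.28 and Slco2a1 at 0.31. The endocardial markers were 5 positive and 2 negative, with Cytl1 at -0.38 and Plvap at 0.19. Of 7 lymphatic markers 1 rose, Thy1, a surface glycoprotein that fibroblasts and T cells carry as well (0.51 ± 0.11, limma adjusted p = 0.0321), and the median was 0.25. The lymphatic genes proper had both signs, with the chemokine Ccl21a at -0.51 and Prox1 at 0.31 (another probe at -0.30). Of 18 liver sinusoidal markers 0 passed in heart, with 10 positive and 8 negative (median 0.05). Fcna, a ficolin, stood at 0.48 and Stab1, a scavenger receptor, at 0.31, while F8 stood at -0.22 and Ctsl at -0.31.

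These calls were close to the threshold. Over 16 alternative settings Bmp4 lost its call in 5, Icam1 and Aqp7 in 7, Aplnr in 8 and Car4 and Thy1 in 10, all keeping their direction. Each call was lost without some single hearts. Bmp4 was lost without wild-type heart 1 or 2 or mutant heart 2, and Aplnr was lost without wild-type heart 1 or 2 or mutant heart 1, 2 or 4. Icam1 was lost without wild-type heart 1 or 3 or mutant heart 2 or 3, and Aqp7 without wild-type heart 2 or 3 or mutant heart 3 or 4. The Car4 call was lost without any 1 of the 8 hearts except wild-type heart 2. The Thy1 call was lost without any 1 of the hearts except mutant heart 2.

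**Figure D4:**
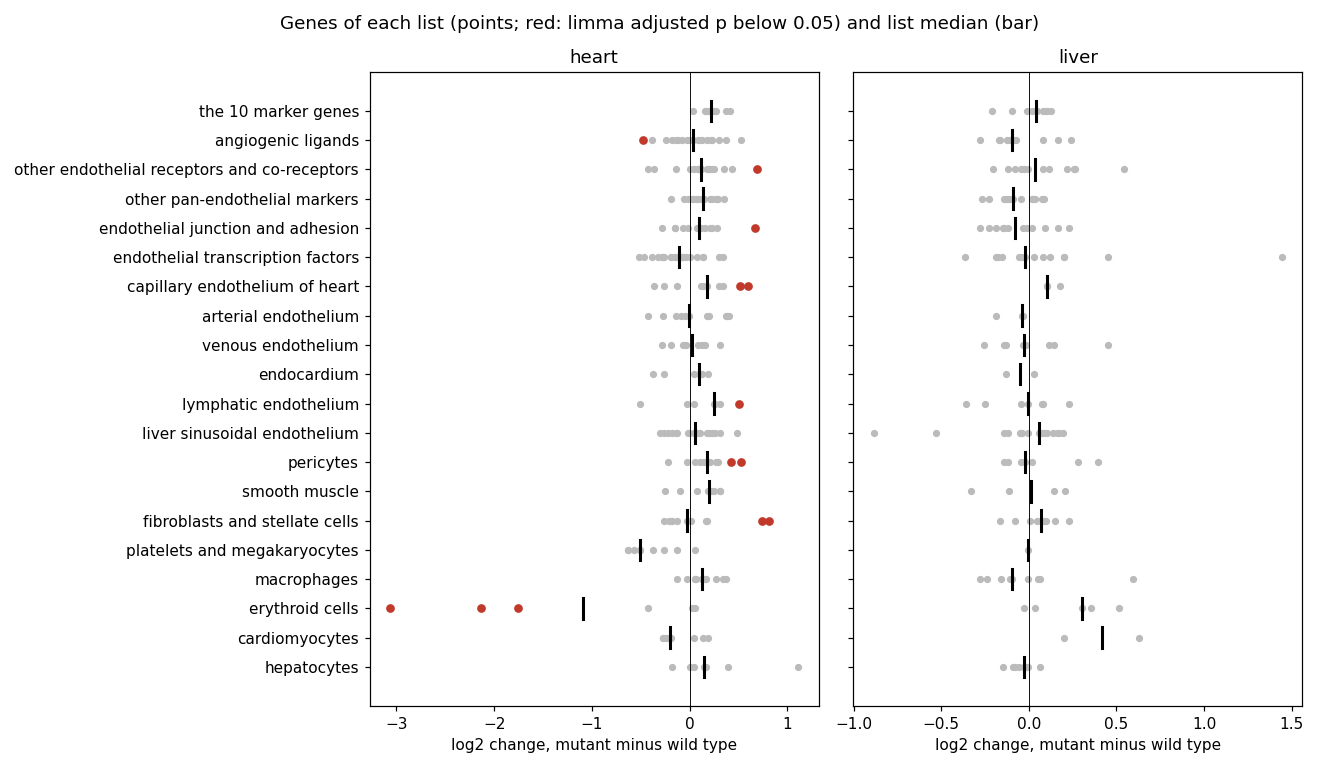
Difference between mutant and wild type on the log2 scale (horizontal axis) for each measured gene of the 10 marker genes and of 19 further lists (rows), in heart (left) and liver (right). Points are genes at their brightest probe, red where limma's adjusted p was below 0.05, and the black bar is the list median. In heart the 10 marker genes have a median of 0.22, the platelet list -0.50 and the erythroid list -1.09, and in liver no gene of any list is red.

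Markers of the cells around vessels held 4 genes past the threshold in the hearts, all higher, among pericyte and fibroblast markers. By comparison 1.31% of all genes were higher past the threshold. Of 10 pericyte markers 2 rose, Higd1b (0.53 ± 0.11, limma adjusted p = 0.0348) and Vtn, which encodes vitronectin (0.43 ± 0.09, limma adjusted p = 0.0372), and the median was 0.18. The Higd1b call was lost in 9 of the 16 settings, with any 1 heart left out except wild-type heart 3 and mutant heart 4. The Vtn call was lost in 8, with any 1 heart left out except mutant heart 1. The summed corrected intensity of the pericyte list was 1828 to 2138 in the wild-type and 1967 to 2324 in the mutant hearts. Such sums add linear intensities and so mostly follow the brightest genes of a list. Of 8 smooth-muscle markers 0 passed, 6 were positive, the median was 0.20 and the sums were 11556 to 12141 and 12791 to 15320.3, without overlap. The brightest of this list were Acta2 and Des (wild-type log2 levels 12.26 and 11.91). Of 11 fibroblast markers 2 rose, Col3a1 (0.81 ± 0.14, limma adjusted p = 0.0131) and Col1a1 (0.74 ± 0.13, limma adjusted p = 0.0141), while a dimmer Col3a1 probe stood at 0.21. Of the 11, 5 were positive and 6 negative, with a median of -0.02. Dcn stood at -0.27 (limma adjusted p = 0.227) with every mutant heart below every wild-type heart. The fibroblast sums were 7567 to 9141 in the wild-type and 6976 to 7549 in the mutant hearts, without overlap and lower in the mutants. They mostly follow Dcn (wild-type log2 level 12.55, the next being Lum at 9.57) and do not describe the list as a whole. The Col1a1 call was lost in 2 of the 16 settings, with the floor of 16 or without mutant heart 3, and the Col3a1 call in 1, with the floor. The part of these cells in the endothelial values was not tested.

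Platelet and erythroid markers had mostly negative differences in the hearts, and macrophage markers mostly positive ones, where 51.8% of all genes were positive. Platelets carry ESAM and PECAM-1 as well, and of 9 platelet and megakaryocyte markers 8 had negative differences, with a median of -0.50 and 0 past the threshold. Gp9, a subunit of the von Willebrand factor receptor, stood at -0.63 ± 0.24 (limma adjusted p = 0.224). The summed corrected intensity of the platelet list was 808.0 to 1297 in the wild-type and 375.5 to 1202 in the mutant hearts, and each marker on the array was above background on at least 1 heart. Of 6 erythroid markers 3 fell, Hbb-bt, a beta-globin (-3.06 ± 0.56), Alas2, the erythroid enzyme that begins heme synthesis (-2.14 ± 0.23), and Slc4a1, the red-cell anion exchanger (-1.76 ± 0.39; limma adjusted p = 0.0169, 0.000778 and 0.0412). The share of all genes lower past the threshold was 0.872%. The Hbb-bt call was lost in 3 of the 16 settings, where adjusted p reached 0.164, and the Alas2 call in 0. The Slc4a1 call was lost in 11 of the 16 settings, with any 1 heart left out except wild-type hearts 1 and 3. The sums of the erythroid list were 36910 to 73799 and 25554 to 30284, without overlap. They mostly follow Hba-a1, the brightest of the list (wild-type log2 level 15.06), which stood at -0.43 ± 0.19 (limma adjusted p = 0.294). In the livers 4 of 5 erythroid markers had positive differences, with a median of 0.30 and 0 past the threshold. The part of blood content in the endothelial values was not tested. Of 12 macrophage markers in the hearts 10 had positive differences and 0 passed on the brightest probe (median 0.13, sums 2383 to 3291 and 2825 to 3162). A dimmer probe of Lyz2, a lysozyme of myeloid cells, was past the threshold at 0.77 ± 0.16 (limma adjusted p = 0.0273), while its brightest probe stood at 0.06. Of 9 heart-muscle markers 0 passed (median -0.20, sums 132263 to 212875 and 119827 to 143510), and of 7 hepatocyte markers 0 passed (median 0.15).

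The genes whose heart pattern lay nearest to that of Esam were described by the root mean square difference of log2 levels, each centred on its mean over the 8 hearts, among 12487 other genes. The nearest 5 were B4galt7, a galactosyltransferase of proteoglycan synthesis (0.062), P2ry6, a UDP receptor (0.066), Fam102a (0.068), Sdhaf1, an assembly factor of succinate dehydrogenase (0.069), and Acta2, smooth-muscle actin (0.071). Of the 5, 0 passed limma's threshold. Among the other endothelial genes the nearest was Tek (0.148) and the farthest Flt1 (0.256).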

How the data were processed

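Bead arrays of 4 wild-type and 3 mutant livers and of 4 wild-type and 4 mutant hearts were analysed. The deposited intensity per probe had been normalized by the authors before deposit, by a method not given in the sources used here, and the submitters' processing notes name GenomeStudio 2011.1. A table of non-normalized values had 15 columns whose names match no sample label and was not used. Background was estimated from each array's low values (their mode and the SD below it), corrected with limma's normexp model, an offset of 16 added and log2 taken. Probes above background (normal p below 0.05) on at least 3 arrays of a tissue were tested. Mutant and wild type were then fitted per tissue by lmFit and eBayes (limma 3.58.1, R 4.3.3) with Benjamini-Hochberg adjustment. The tissue difference used duplicateCorrelation with the mouse as block (statmod 1.5.0), with an estimated correlation of 0.0119. Symbols came from the platform annotation, updated through Entrez identifiers with RefSeq on GRCm38.p6, and 23978 probes had 1 symbol, 1719 none. A gene stood at its brightest probe. The number of arrays limits the precision. The limma step was run on simulated data whose planted changes were larger than the differences of the endothelial genes. It therefore does not bear on differences of their size.

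The 10 genes, the lists and the tests were chosen with earlier results of these data known. Of each list the genes past the threshold were to be named, and otherwise up to 4 with the smallest p. The values of a further pan-endothelial marker, first in its list by p, are not reported here. Alternatives covered the background step, offset, filter, quantile normalization, trend and robust settings, 1 fit of all arrays, the replicate number as a block, averaged probes and each array left out. Same-numbered wild-type and mutant mice are different animals, and their deviations from the group means did not correlate (Pearson -0.107 to 0.0144 over 7 pairs).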

Additional observations from a re-analysis of the deposited data

Results flagged for a closer look

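Of 39 sets of 4 mice (a probe of the endothelial genes in 1 group), 4 held a mouse set apart from the other 3 by Dixon's test at 95%, of which chance alone gives about 1 in 20. Tek stood at 8.77 in wild-type heart 4 and at 8.96 to 8.98 in the other wild-type hearts (log2 level). Kdr stood at 4.29 in wild-type heart 4, where it was not above background, and at 4.57 to 4.62 in the others. Flt1 stood at 10.71 in wild-type heart 3 and at 10.95 to 10.99 in the others. Cdh5 stood at 8.06 in mutant heart 1 and at 7.91 in the other 3 mutant hearts. All 4 lay on the side of their group that widens the difference between genotypes. Without them the differences were 0.20 for Tek, 0.087 for Kdr, -0.029 for Flt1 and 0.18 for Cdh5.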

How the results depend on the processing

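Over all probes, the number past the threshold in heart was 367, and 130 with a floor of 16, 576 with an offset of 50, 243 with no filter, 605 with trend and robust settings, 583 in 1 fit of all arrays, 237 with the replicate block and 199 to 294 with a heart left out. In liver it was 12, and 5, 0 and 36 with the floor, no filter and trend and robust settings, 156 in 1 fit of all arrays, 31 with the replicate block and 2 to 54 with a liver left out. For the tissue difference it was 257, and 136 to 290 with an array left out. Of the 10 endothelial genes, 1 passed in heart (Esam) with an offset of 50, trend and robust settings, 1 fit of all arrays or averaged probes, and 0 to 1 with a heart left out (Tie1, without mutant heart 4). In heart 9 to 10 genes stayed positive and 3 to 6 had groups apart with a heart left out (5 without wild-type heart 4, 6 without mutant heart 4), a count that leaving out a heart cannot lower. In liver 2 to 7 were positive and 0 to 1 had groups apart with a liver left out. For the tissue difference 1 passed (Esam) with the floor, the offset of 50 or trend and robust settings, and 0 to 1 with an array left out.

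Signs turned for dim or small differences, and the cause was not tested. In heart Flt1 was -0.22 with averaged probes and -0.029 to 0.16 with a heart left out. In liver the replicate block, under which Esam in heart had adjusted p = 0.121, gave Tie1 0.16 and Cdh5 -0.050. With a liver left out, Tie1 ran from -0.21 to 0.16, Tek from -0.085 to 0.10, Pecam1 from -0.088 to 0.26, Cdh5 from -0.050 to 0.21, Flt1 from -0.086 to 0.17, Eng from -0.072 to 0.22 and Egfl7 from -0.0090 to 0.17. The tissue difference of Flt1 was -0.010 with the floor, -0.0014 with the offset of 50 and -0.13 to 0.13 with an array left out, while Emcn ran from -0.17 to 0.0098 and Egfl7 from -0.17 to 0.011. In heart Egfl7 moved from 0.16 to 0.051 with averaged probes and to 0.085 without mutant heart 3. Kdr moved from 0.17 to 0.069 with the offset of 50, to 0.087 without wild-type heart 4 and to 0.11 without mutant heart 3. Kdr was at the floor of 16 on all hearts and gave no value there. The replicate block also took the calls of Bmp4, Aplnr, Icam1, Aqp7, Car4, Thy1, Higd1b and Vtn in heart.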

Other observations

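In the livers, none of the genes of the 19 other lists passed limma's threshold. The list medians ran from -0.10 (macrophages) to 0.42 (heart-muscle markers, of which 2 were measured). The largest single value among endothelial transcription factors was that of Hhex, a homeobox factor of endothelium and hepatocytes, at 1.44 ± 0.35 (2.72-fold, limma adjusted p = 0.183) with the genotypes apart. Wnt2, a ligand made by sinusoidal endothelium, stood at -0.88 ± 0.30 (limma adjusted p = 0.304), and Ptprb, the phosphatase that acts on TIE2, at 0.54 ± 0.18 (limma adjusted p = 0.300). The summed corrected intensity of the sinusoidal list was 3292 to 3927 in the wild-type and 3053 to 4394 in the mutant livers.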
